A study of Mus musculus with 12 samples.

Results

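The genes described here are Bdnf, Ntf3, Ntrk2, Ntrk3, Ngfr, Vgf, Igf1 and Fndc5, the neurotrophins, their receptors and the growth factor genes most often named with exercise. They were chosen by name, with earlier results of these data known. All 8 are among the 56941 genes of the count tables and the 20341 genes that were abundant enough to be tested. No one of the 8 genes passed the test in any comparison of genotype or exercise. Vgf stood out among them for a spread between mice that rested mainly on 2 libraries.

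On GRCm39 the ligand genes are Bdnf at chr2:109505045-109557475 (plus strand) and Ntf3 at chr6:126078375-126143873 (minus strand). The receptor genes are Ntrk2 at chr13:58954176-59281784 (plus strand), Ntrk3 at chr7:77825707-78387760 (minus strand) and Ngfr at chr11:95459638-95478561 (minus strand). The other genes are Vgf at chr5:137055246-137062205 (plus strand), Igf1 at chr10:87693642-87772904 (plus strand) and Fndc5 at chr4:129030397-129041865 (plus strand). Counts cover all annotated exons of each gene.

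RNA was sequenced from the cerebellum of 12 mice in 4 groups of 3, named here by group and mouse number. SCA1 mice carried Atxn1154Q/2Q, a knock-in allele of the ataxin-1 gene with an expanded CAG repeat beside 1 normal allele, which models spinocerebellar ataxia type 1 in every cell that uses the gene's own promoter. WT mice were C57BL/6J littermates. Exercise mice lived alone with a running wheel from 4 to 16 weeks of age, for 12 weeks, and sedentary mice were housed in groups without a wheel, so that the wheel and the single housing cannot be told apart. The wheels were taken out days before the behavioral tests, which began at about 16 weeks of age and included motor tests. Tissue was taken after the last test, so the levels follow days without a wheel. Males and females were used, and the sex of each mouse was not given with the samples. Xist, which is made from the inactive X chromosome, was at 1143 CPM (counts scaled to library size) or more in 4 libraries, whose 4 chromosome Y genes summed to at most 0.403 CPM. In the other libraries Xist was at most 1.11 CPM and the chromosome Y genes summed to 201 to 267 CPM. The 4 libraries were 0 of 3 WT sedentary, 1 of 3 WT exercise, 1 of 3 SCA1 sedentary and 2 of 3 SCA1 exercise mice, so that these markers were spread unevenly over the groups.

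Neurotrophins are secreted proteins that neurons make as longer precursors. The mature forms bind Trk receptor tyrosine kinases, BDNF mainly TrkB and neurotrophin 3 mainly TrkC, while the precursors bind the p75 receptor. In the cerebellum BDNF and neurotrophin 3 act on granule and Purkinje cells as these mature, and running is known to raise Bdnf mRNA in the hippocampus.

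The libraries held 55059831 to 69065648 read pairs, of which 20556802 to 32127508 were assigned to a gene on the sequenced strand. SCA1 sedentary mouse 16 and SCA1 exercise mouse 55 stood apart from the other 10 libraries. Pairs that mapped to several places made up 6.38% and 6.33% of these libraries, against 2.08% to 3.46% in the others. The summed level of 6 Hox genes, which are used in the brainstem and not in the cerebellum, was 32.1 and 38.6 CPM in mice 16 and 55 and at most 2.87 CPM elsewhere, where up to 5 of the 6 were at 0. The 10 granule cell markers summed to 3855 and 4991 CPM in these mice against 6484 to 7655 CPM in the others, and the 7 oligodendrocyte markers to 7026 and 5604 CPM against 2518 to 4239 CPM. The labelled tissue showed its defining markers in every library, and Calb1, the calbindin gene of Purkinje cells, was at 349 ± 39.6 CPM in SCA1 sedentary and 615 ± 65.2 CPM in WT sedentary mice (SD, n = 3 each). Values without mice 16 and 55 are given beside those that moved most without them. Such fits leave fewer than 3 mice in each SCA1 group.

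Per kilobase of annotated exon, Fndc5 had the highest mean level of the 8 genes and Igf1 the lowest. Mean levels over the 12 mice were 33.5 CPM per kb for Fndc5, 24.2 for Ntrk3, 16.0 for Ntrk2, 8.29 for Vgf, 2.02 for Ntf3, 1.96 for Bdnf, 1.89 for Ngfr and 0.764 for Igf1. The first 3 of these neighbouring pairs kept this order in 11 of 12 mice each. Mouse 16 was among the exceptions, with Vgf at 33.5 CPM per kb, above its Ntrk2. Ntf3 was above Bdnf in 6 of 12 mice and Bdnf above Ngfr in 7 of 12, so these 3 genes had no stable order. Vgf lay above Ntf3, and Ngfr above Igf1, in all 12 mice with no overlap of their ranges. The exons of Ntrk2 and Ntrk3 include long alternative ends, with 29922 and 31340 annotated bases, and dividing by the full length gives a lower value than a single short transcript would.

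**Figure D1:**
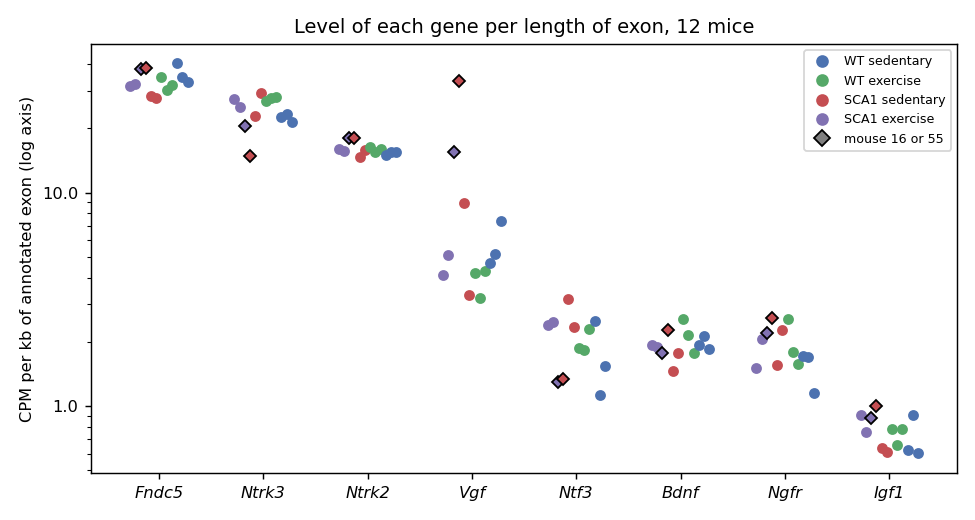
Level of each gene in CPM per kilobase of annotated exon (log axis), 1 point per mouse, colored by group, with mice 16 and 55 as black-edged diamonds. Fndc5, Ntrk3 and Ntrk2 lie above 14 in every mouse, Ntf3, Bdnf and Ngfr overlap near 2, and Vgf in mice 16 and 55 lies above its level in the other 10 mice.

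The design asks whether the SCA1 genotype or 12 weeks of wheel access moved these genes in the cerebellum. Counts were compared with edgeR's quasi-likelihood test in 1 model over the 12 libraries, and a gene was called at an adjusted p under 0.05 (Benjamini-Hochberg over 20341 genes) and an absolute log2 fold change over 0.5. Between SCA1 and WT sedentary mice 0 of 8 genes were called, against 0.0344% of all genes, and 0 of 8 had an unadjusted p under 0.05, against 10.1% of all genes. Between WT exercise and WT sedentary mice 0 of 8 were called (0% of all genes) and 0 of 8 had an unadjusted p under 0.05 (4.69% of all genes). For exercise within the SCA1 genotype the same counts were 0 and 0 of 8 (0% and 2.17% of all genes). They were also 0 and 0 of 8 between SCA1 exercise and WT exercise mice (0% and 2.93%), and 0 and 0 of 8 for the interaction, which is the exercise response of SCA1 mice minus that of WT mice (0% and 3.78%).

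Averaging over the other factor compares 6 mice with 6. For SCA1 against WT averaged over activity, 0 of 8 genes were called (0.118% of all genes) and 1 of 8 had an unadjusted p under 0.05 (9.81% of all genes), namely Vgf. For exercise against sedentary averaged over genotype, the counts were 0 of 8 (0% of all genes) and 0 of 8 (3.54%). DESeq2, run on the same counts, called 0 of the 8 genes in each of the 7 comparisons and likewise gave only Vgf an unadjusted p under 0.05. Without mice 16 and 55, 0 of 8 were again called in each comparison, and 8 of the 56 tests of a gene in a comparison had an unadjusted p under 0.05 (14.3%). In that fit 6.48% to 20.2% of all genes had such a p, depending on the comparison, and 0% to 1% were called. A miss of this threshold does not show that levels were alike, and the intervals below give the sizes that the data still allow. The comparisons share groups and are not independent of each other.

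**Figure D2:**
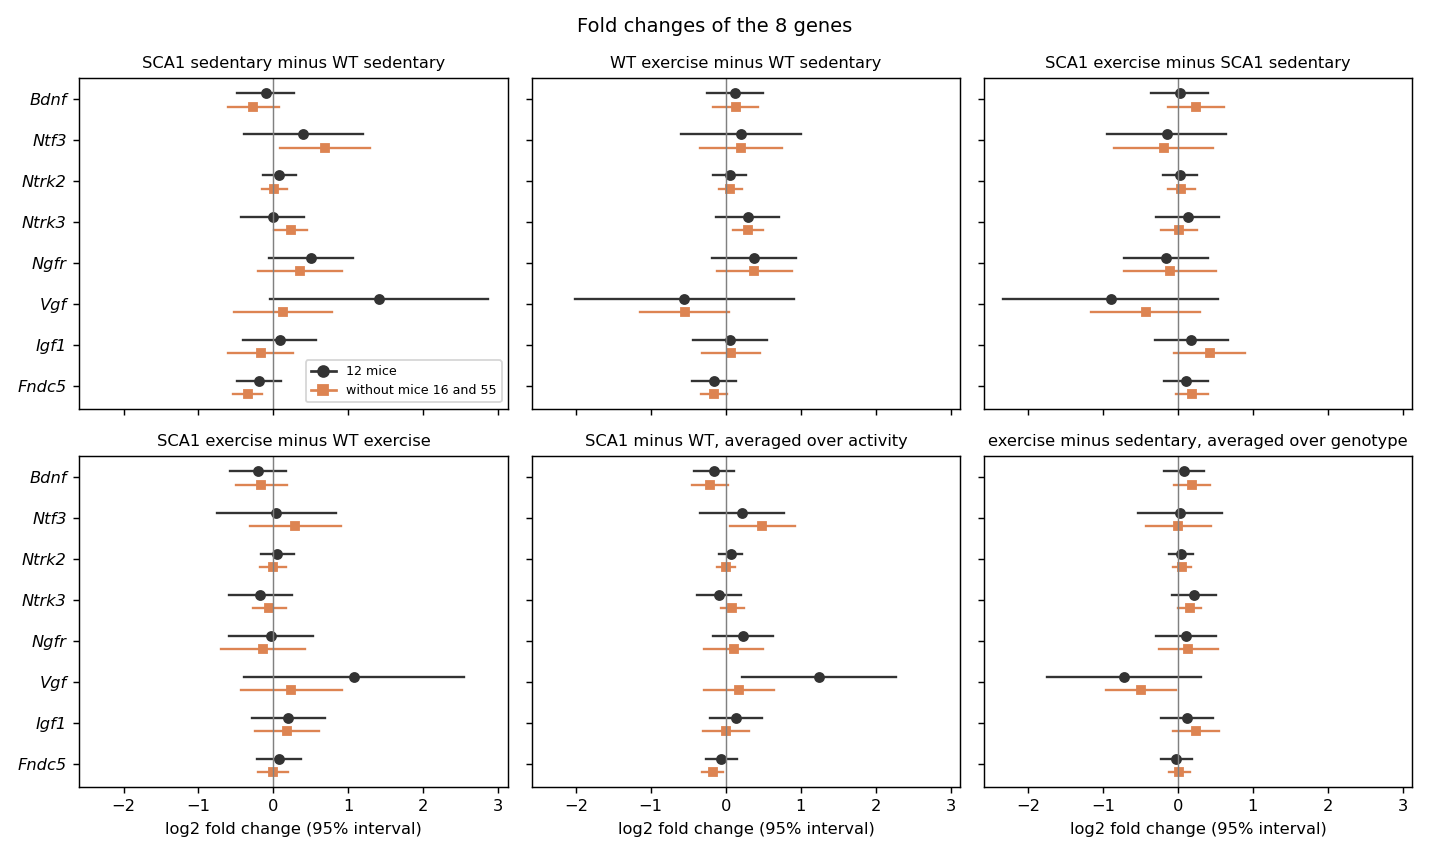
Log2 fold change of each gene with its 95% interval in 6 comparisons, from 12 mice (dark circles) and without mice 16 and 55 (orange squares). All intervals from 12 mice include 0 except that of Vgf for SCA1 minus WT averaged over activity, and Vgf has the widest intervals throughout.

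Bdnf encodes brain-derived neurotrophic factor, the ligand of TrkB. In mouse it is transcribed from several start sites, most of which join their own first exon to a shared coding exon, and the counts sum over all of them. The RefSeq start-site table holds 7 Bdnf starts, which a gene-level count cannot separate, and the 60 bases before each are shown. In GENCODE 1 Bdnf transcript starts within 50 bases of each of starts 1 to 6, and 0 of start 7. The stretches are numbered by start. They lie on the plus strand of chromosome 2 (GRCm39), and each window matched that strand at 1 place. Other chromosomes were not searched. None of the 60-base stretches overlaps an annotated Bdnf exon. Capitals mark CGTCA, the core of the cAMP response element through which CREB acts, searched on both strands as CGTCA and TGACG.
Bdnf start 1, chr2:109504985-109505044: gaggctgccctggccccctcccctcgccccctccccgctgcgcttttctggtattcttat
Bdnf start 2, chr2:109507317-109507376: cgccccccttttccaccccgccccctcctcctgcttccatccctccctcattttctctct
Bdnf start 3, chr2:109522721-109522780: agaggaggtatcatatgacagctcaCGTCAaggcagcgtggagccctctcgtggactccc
Bdnf start 4, chr2:109523312-109523371: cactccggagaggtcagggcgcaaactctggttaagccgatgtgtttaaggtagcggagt
Bdnf start 5, chr2:109524694-109524753: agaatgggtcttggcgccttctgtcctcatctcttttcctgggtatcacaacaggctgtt
Bdnf start 6, chr2:109539668-109539727: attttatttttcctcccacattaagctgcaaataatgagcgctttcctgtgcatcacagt
Bdnf start 7, chr2:109553206-109553265: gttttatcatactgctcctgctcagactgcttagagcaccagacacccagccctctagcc
The core was found before 1 of the 7 starts, at 35 bases upstream of start 3. Of all 32851 start-site windows in the table, 7.02% hold it in the same 60 bases before the start. In the full windows of 300 bases 20.8% hold it, as did 1 of the 13 windows of these genes. The full palindrome TGACGTCA, which contains the core, was in 0 of the 13 windows and in 1.79% of all windows. The table has no window for Ntrk3 or Vgf.

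Bdnf reads were moderate in number, 261 to 488 per library. For every gene below, values follow the mouse numbers 116, 117, 192 in the WT sedentary group, 121, 197, 201 in the WT exercise group, 16, 194, 195 in the SCA1 sedentary group and 55, 122, 198 in the SCA1 exercise group. WT sedentary mice had 14.7, 16.2 and 14.1 CPM and WT exercise mice 19.4, 16.3 and 13.5 CPM. The SCA1 sedentary mice had 17.2, 11.1 and 13.5 CPM and the SCA1 exercise mice 13.5, 14.6 and 14.4 CPM. The highest and lowest WT values were both in exercise mice, and every pair of groups overlapped. The log2 fold change for exercise averaged over genotype was 0.08 (95% interval −0.19 to 0.34, edgeR adjusted p 0.950, exact permutation p 0.51 over 400 arrangements), which on the fold scale runs from 0.876 to 1.27. Without mice 16 and 55 it was 0.19 (−0.05 to 0.43, edgeR adjusted p 0.697). For SCA1 against WT averaged over activity it was −0.15 (−0.42 to 0.11, edgeR adjusted p 0.691). This genotype difference was −0.22 (−0.45 to 0.02, edgeR adjusted p 0.489) without mice 16 and 55. With the summed chromosome Y level as a covariate it was −0.06 (edgeR adjusted p 0.899). In bulk tissue, fewer cells of a type and less RNA per cell cannot be told apart for this or any other gene here.

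Ntf3, the gene of neurotrophin 3 and ligand of TrkC, was the rarest of the 8 by reads, with 46 to 138 per library. Levels were 4.35, 1.97 and 2.68 CPM in WT sedentary and 3.24, 3.17 and 4.00 CPM in WT exercise mice. In the SCA1 groups they were 2.33, 5.52 and 4.09 CPM (sedentary) and 2.26, 4.17 and 4.29 CPM (exercise). Mice 16 and 55 were the lowest of the SCA1 mice, and the other 4 SCA1 mice lay at or above 4.09 CPM. SCA1 sedentary minus WT sedentary gave a log2 fold change of 0.40 (−0.40 to 1.19, edgeR adjusted p 0.737), and 0.69 (0.08 to 1.29, edgeR adjusted p 0.191) without mice 16 and 55. This difference was 0.075 without mouse 194 alone, and 0.28 (edgeR adjusted p 0.903) with the chromosome Y covariate. Averaged over activity the genotype difference was 0.22 over all mice and 0.49 without mice 16 and 55 (0.06 to 0.92, edgeR adjusted p 0.346). It was 0.057 without mouse 194 alone. None of these values passed the adjusted test.

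Ntrk2 encodes TrkB, including the truncated form that astrocytes carry, and was the steadiest of the 8 genes. WT sedentary mice had 449.7, 464 and 462 CPM and WT exercise mice 489, 464 and 477 CPM. The SCA1 mice had 542, 441 and 473 CPM when sedentary and 539, 477 and 467 CPM with exercise. Mice 16 and 55 were the 2 highest of the 12, and the other 10 lay between 441 and 489 CPM. The SD of log2 CPM within groups was 0.097, lower than in all but 13.8% of the 500 genes nearest in level. The intervals were accordingly narrow. Exercise averaged over genotype gave 0.04 (−0.12 to 0.20, edgeR adjusted p 0.950), a fold between 0.924 and 1.15. Genotype averaged over activity gave 0.07 (−0.09 to 0.22, edgeR adjusted p 0.772), and 0.00 (−0.11 to 0.12) without mice 16 and 55.

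Ntrk3 encodes TrkC, the receptor of neurotrophin 3, and had the most reads of the 8 genes, 13203 to 22477 per library. WT sedentary mice had 709, 729 and 671 CPM and WT exercise mice 841, 866 and 881 CPM. All 3 exercised WT mice were above all 3 sedentary ones, as was the case in 1 direction or the other for 21.2% of all genes in that comparison. Mean levels were 703 ± 29.6 CPM and 863 ± 19.8 CPM (SD, n = 3 each). The log2 fold change was 0.29 (−0.13 to 0.72, edgeR adjusted p 0.958), and the exact permutation p was 0.1, the smallest that 3 against 3 mice can give.

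The adjusted p of this Ntrk3 difference depended on which libraries were fitted. In a fit to the WT mice alone, the log2 fold change was 0.30 with an edgeR adjusted p of 0.0466, still below the fold limit of 0.5. That fit also filtered and scaled the WT libraries alone, and it called 150 of all genes, against 0 in the fit to all mice. Without mice 16 and 55 the edgeR adjusted p was 0.206 (0.10 to 0.50). SCA1 sedentary mice had 466, 718 and 914 CPM, the lowest and the highest of all 12 mice in 1 group. SCA1 exercise mice had 645, 856 and 791 CPM, with mouse 55 lowest. SCA1 exercise minus SCA1 sedentary was 0.13 (−0.29 to 0.55, edgeR adjusted p 0.999) and 0.01 (−0.23 to 0.25) without mice 16 and 55. The interaction, which tests whether the exercise response differed between genotypes, was −0.17 (−0.76 to 0.43, edgeR adjusted p 1.00), and −0.29 (−0.60 to 0.02, edgeR adjusted p 0.371) without the 2 mice. SCA1 sedentary minus WT sedentary was −0.01 (−0.43 to 0.41) over all mice and 0.23 (0.01 to 0.45, edgeR adjusted p 0.222) without mice 16 and 55.

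Ngfr encodes p75, which binds all neurotrophins and with high affinity their precursors. WT sedentary mice had 5.90, 5.85 and 3.96 CPM and WT exercise mice 8.81, 6.22 and 5.42 CPM. SCA1 sedentary mice had 8.93, 5.39 and 7.89 CPM and SCA1 exercise mice 7.62, 5.21 and 7.12 CPM. WT sedentary mice included the lowest value and had the lowest mean, 5.24 ± 1.11 CPM, and each other group overlapped them. SCA1 sedentary minus WT sedentary was 0.50 (−0.06 to 1.06, edgeR adjusted p 0.552), and 0.36 (−0.20 to 0.91, edgeR adjusted p 0.462) without mice 16 and 55. With the chromosome Y covariate it was 0.63 (unadjusted p 0.0219, edgeR adjusted p 0.552). WT exercise minus WT sedentary was 0.38 (−0.19 to 0.94, edgeR adjusted p 0.958), and SCA1 exercise minus SCA1 sedentary was −0.16 (−0.72 to 0.40, edgeR adjusted p 0.999). The difference between these exercise responses was −0.53 (−1.33 to 0.26, edgeR adjusted p 1.00).

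**Figure D3:**
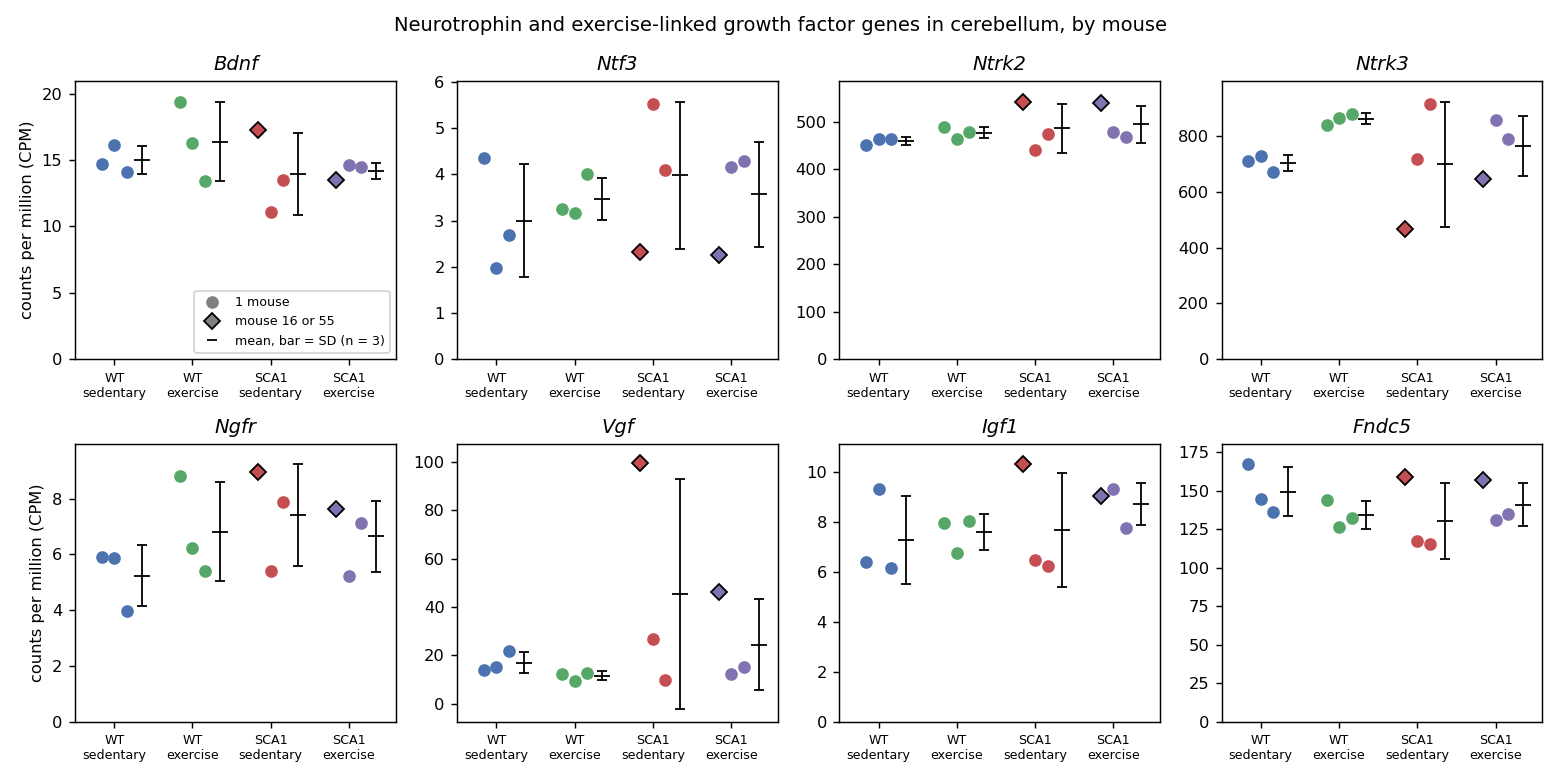
CPM of each gene by group, 1 point per mouse, with mice 16 and 55 as black-edged diamonds and the group mean with its SD (n = 3) beside the points. Vgf reaches 99.5 in mouse 16 and 46.1 in mouse 55, above the other 10 mice, Ntrk3 is lowest in these mice, and no WT exercise point overlaps WT sedentary for Ntrk3 or Vgf.

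Vgf encodes a secreted neuropeptide precursor of the granin kind that neurotrophins and neuronal activity induce. WT sedentary mice had 13.9, 15.4 and 21.9 CPM and WT exercise mice 12.5, 9.60 and 12.8 CPM. The SCA1 sedentary group had 99.5, 26.7 and 9.91 CPM and the SCA1 exercise group 46.1, 12.2 and 15.1 CPM. Mouse 16 was the highest and mouse 55 the next, and mouse 195, of the same group as mouse 16, was close to the lowest of all. The highest level was 10.4 times the lowest. The SD of log2 CPM within groups was 1.00, against a median of 0.19 among the 500 genes nearest in level and more than in 99.8% of them.

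SCA1 minus WT averaged over activity gave a Vgf log2 fold change of 1.24 (SE 0.48, 0.21 to 2.28), with an unadjusted edgeR p of 0.0221 and an adjusted p of 0.427. The exact permutation p, with genotypes exchanged within each activity group, was 0.195, where 0.005 is the smallest possible. Without mice 16 and 55 the fold change was 0.18 (−0.28 to 0.65, edgeR adjusted p 0.809). Between sedentary groups it was 1.41 (−0.04 to 2.87, edgeR adjusted p 0.511), and 0.10 without mouse 16 alone. Between exercise groups it was 1.07 (−0.39 to 2.54, edgeR adjusted p 0.960), and 0.24 without mice 16 and 55.

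All 3 WT exercise mice had less Vgf than all 3 WT sedentary mice, as was the case for 11.1% of all genes. In that comparison the groups did not overlap for 2 of the 8 genes, Ntrk3 and Vgf, against 21.2% of all genes. The log2 fold change was −0.55 (−2.02 to 0.91, edgeR adjusted p 0.958, exact permutation p 0.1), and −0.54 with an edgeR adjusted p of 0.160 in the fit to WT mice alone. SCA1 exercise minus SCA1 sedentary was −0.89 (−2.33 to 0.54, edgeR adjusted p 0.999), 0.42 without mouse 16, −1.71 without mouse 55 and −0.43 (−1.16 to 0.29, edgeR adjusted p 0.668) without both. Over both genotypes the exercise difference was −0.72 (−1.75 to 0.30, edgeR adjusted p 0.945), and −0.49 (−0.96 to −0.02, edgeR adjusted p 0.697) without these mice. Groups did not overlap for 0 of 8 genes in the other pairwise comparisons, where 11.4% (SCA1 against WT sedentary), 4.5% (SCA1 exercise against sedentary) and 14.2% (SCA1 against WT exercise) of all genes did not overlap.

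Igf1 encodes insulin-like growth factor 1, which reaches the brain from the circulation and is also made locally, so that its mRNA here covers only the local part. It was the lowest per kilobase. WT mice had 6.41, 9.31 and 6.15 CPM when sedentary and 7.97, 6.76 and 8.04 CPM with exercise. SCA1 mice had 10.3, 6.50 and 6.26 CPM when sedentary and 9.05, 9.34 and 7.76 CPM with exercise. Mouse 16 was the highest, and all groups overlapped. Exercise averaged over genotype gave 0.12 (−0.23 to 0.47, edgeR adjusted p 0.945), and 0.24 (−0.06 to 0.55, edgeR adjusted p 0.697) without mice 16 and 55. SCA1 exercise minus SCA1 sedentary was 0.18 (−0.31 to 0.67, edgeR adjusted p 0.999), and 0.42 (−0.06 to 0.90, edgeR adjusted p 0.573) without mice 16 and 55. SCA1 sedentary minus WT sedentary was 0.08 over all mice and −0.17 without these mice, with intervals that included 0 both times.

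Fndc5 encodes the membrane protein from which irisin is cut, a factor that muscle is known to release on exercise and that Purkinje cells also make. WT sedentary mice had 167, 145 and 136 CPM and WT exercise mice 144, 126 and 132 CPM. In SCA1 mice levels were 159, 117 and 115 CPM (sedentary) and 157, 131 and 135 CPM (exercise). Mice 16 and 55 were the highest of the SCA1 mice, and the other 2 SCA1 sedentary mice were the lowest of all 12. SCA1 sedentary minus WT sedentary was −0.19 (−0.49 to 0.10, edgeR adjusted p 0.662), and −0.34 (−0.54 to −0.15, edgeR adjusted p 0.0749) without mice 16 and 55, the lowest adjusted p of the 8 genes in that fit. The interaction was 0.27 (−0.15 to 0.68, edgeR adjusted p 1.00) and, without the 2 mice, 0.34 (0.06 to 0.61, edgeR adjusted p 0.257). An annotated gene on the same strand, Gm15906, overlaps exons of Fndc5 in GENCODE. If the annotation used for counting held it, reads that fell on both would have gone to neither.

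The levels of several of these genes moved with one another and with cell type markers over the libraries. These correlations of log2 CPM describe 12 libraries that share 4 groups and the 2 libraries that stood apart, and they carry no test. Ntrk3 and Vgf moved oppositely, with Pearson r −0.94 (Spearman rho −0.89) over 12 libraries and r −0.82 over the 10 without mice 16 and 55. Vgf against the mean log2 level of the granule cell markers had r −0.93 over 12 and −0.54 over 10 libraries. Ntrk3 against the share of reads that fell on no annotated exon, 39.3% to 58.7% per library, had r 0.92 over 12 and 0.79 over 10. Ntrk3 against the oligodendrocyte markers had r −0.90 and −0.72. The part of cell makeup, of reads outside exons and of brainstem tissue in these levels was not tested.

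Fndc5 followed the Bergmann glia and astrocyte markers, with r 0.90 over 12 and 0.92 over 10 libraries, so that this relation did not rest on mice 16 and 55. It also followed the oligodendrocyte (r 0.79 and 0.76) and microglia markers (r 0.76 and 0.67). The relation was not particular to glia. Over the 10 libraries the Purkinje cell, granule cell, and molecular layer and Golgi interneuron markers each had r 0.75 with Fndc5. Over 12 libraries these were 0.30, −0.27 and 0.68. The Hox genes and the choroid plexus markers had r −0.13 and −0.01 over 10. Against the share of reads on no annotated exon Fndc5 had r −0.84 over 12 and −0.82 over 10 libraries, and against the share of multimapped pairs r 0.69 over 12 and 0.70 over 10. The part of these shares in the Fndc5 level was not tested. Bdnf against the granule cell markers had r 0.06 over 12 libraries and 0.78 over 10. Against the molecular layer and Golgi interneuron markers Bdnf had r 0.26 over 12 and 0.85 over 10. The Purkinje cell markers gave Bdnf r 0.27 and 0.66, and the Bergmann glia and astrocyte markers r 0.39 and 0.62. Ntrk2 against the granule cell markers had r −0.74 over 12 and 0.44 over 10, a relation that changed sign without these mice. Bdnf and its receptor gene Ntrk2 had r 0.35, and Ntf3 and its receptor gene Ntrk3 had r 0.51, over 12 libraries.

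**Figure D4:**
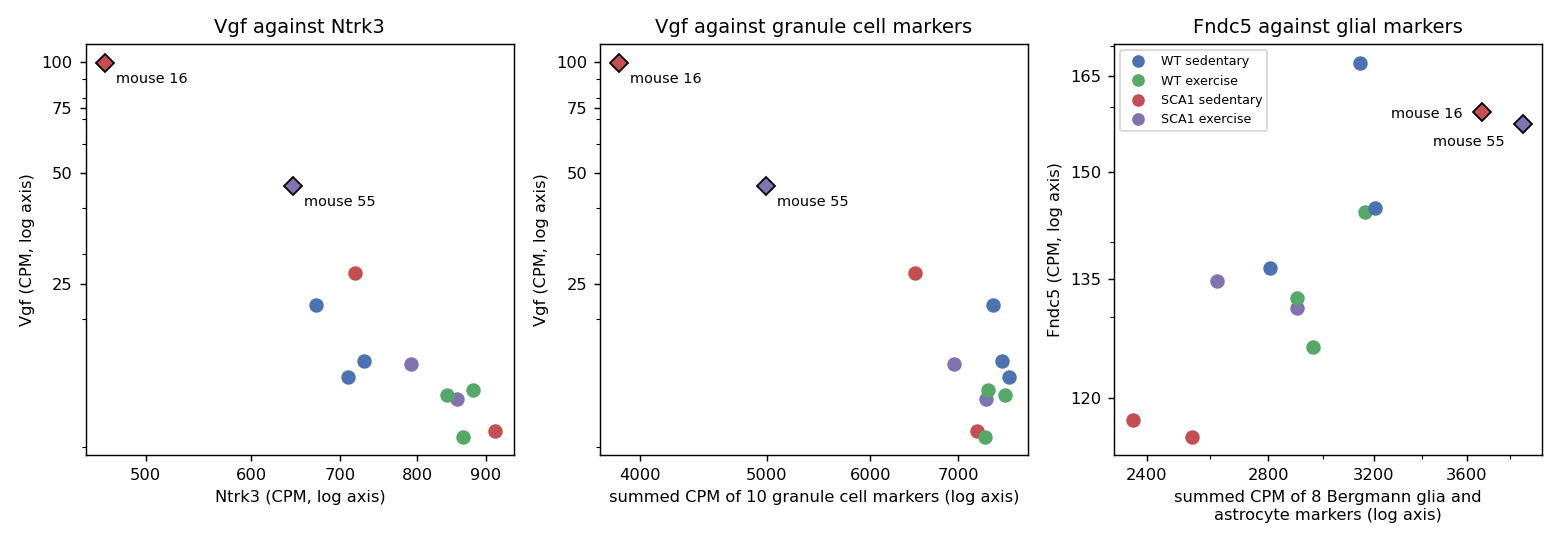
Vgf against Ntrk3, Vgf against the summed CPM of 10 granule cell markers, and Fndc5 against the summed CPM of 8 Bergmann glia and astrocyte markers (all log axes), 1 point per mouse, colored by group. Mice 16 and 55 sit at the top left of the first 2 panels with Vgf of 99.5 and 46.1 CPM, and in the last panel they lie at the upper end of a trend that the other 10 mice also show.

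The genes most like each of the 8 in log2 CPM over the 12 libraries, out of 16745 compared, had r of 0.86 or more. They were Jade1 (r 0.88) and Kbtbd2 (0.87) for Bdnf, and Stat5b (0.89) and Brpf3 (0.88) for Ntf3. For the receptors they were Bace2 (0.96) and Wdr17 (0.95) with Ntrk2, Chd9 and Gm42991 (0.98 each) with Ntrk3, and Gas2l3 (0.88) and Gca (0.86) with Ngfr. Rerg (0.99) was among the genes most like Vgf, Igf1 was most like Gfpt1 (0.95) and Ubxn8 (0.92), and Fndc5 like BC031181 and Adh5 (0.97 each). Genes with r above 0.8 numbered 1857 for Vgf, 1516 for Ntrk3, 751 for Fndc5 and 449 for Ntrk2, and 11 to 28 for Bdnf, Ntf3, Ngfr and Igf1. The libraries that stood apart lie within these correlations.

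A list of 97 further pathway genes covered proteases that process the ligands, co-receptors, Trk adaptors and kinases, the insulin-like growth factor system, granins, relatives of Fndc5 and other growth factors named with exercise. Of these 91 were abundant enough to be tested, and 0 of 91 were called in any of the 7 comparisons. Unadjusted p under 0.05 was reached by 16.5% of them between SCA1 and WT sedentary mice (9 higher, 6 lower) and by 18.7% for SCA1 against WT averaged over activity (13 higher, 4 lower), against 10.1% and 9.81% of all genes. It was reached by 4.4% between WT exercise and WT sedentary mice (4 higher, 0 lower) and by 0% for exercise in SCA1 mice, against 4.69% and 2.17% of all genes. SCA1 against WT exercise, the interaction and exercise averaged over genotype gave 3.3% each, against 2.93%, 3.78% and 3.54%. Without mice 16 and 55, where 90 of the list were tested, the share was 28.9% between SCA1 and WT sedentary mice (20.2% of all genes) and 21.1% for genotype averaged over activity (11.7%). It was then 15.6% for exercise in WT mice (13.3%) and 7.78% for exercise in SCA1 mice (8.79%). The median log2 fold change of the list lay between −0.02 and 0.08 in the 7 comparisons, and that of all genes between −0.01 and 0.02. This list and the activity list below were chosen with earlier results of these data known.

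The pathway gene with the lowest adjusted p was Igfbp5, a binding protein that holds insulin-like growth factors. In WT mice it was at 186 ± 12.1 CPM when sedentary and 215 ± 1.96 CPM with exercise, and in SCA1 mice at 93.7 ± 11.5 and 117 ± 54.9 CPM (SD, n = 3 each). SCA1 minus WT averaged over activity gave −0.93 (−1.30 to −0.56, edgeR adjusted p 0.0631), and without mice 16 and 55 Igfbp5 was called lower in SCA1 mice in that comparison, between sedentary and between exercise groups. Pappa, a protease that cuts such binding proteins, was called higher in SCA1 mice averaged over activity without mice 16 and 55 and not with them. In the fit without these mice, 1 of the 90 list genes was called higher and 1 lower averaged over activity, against 0.693% of all genes. Igfbp5 was the 1 of 90 called between sedentary groups (1% of all genes) and between exercise groups (0.181% of all genes). Slitrk3, which has a Trk-like intracellular end, had 0.56 (0.28 to 0.85, edgeR adjusted p 0.147) for SCA1 against WT averaged over activity. Fndc3b, a relative of Fndc5, had 0.61 (0.31 to 0.90, edgeR adjusted p 0.162) between SCA1 and WT sedentary mice.

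Kl and Igfbp2 had the lowest p of the list for exercise in WT mice. Kl encodes klotho, which the choroid plexus makes in quantity, and its level was 4.70 ± 3.62 CPM in WT sedentary and 60.1 ± 24.5 CPM in WT exercise mice (log2 fold change 3.65, 1.66 to 5.65, edgeR adjusted p 0.505). Igfbp2 was at 9.65 ± 1.24 and 34.2 ± 8.25 CPM (1.83, 0.68 to 2.97, edgeR adjusted p 0.679). Without mice 16 and 55 Igfbp2 was called higher, as 1 of 90 list genes, against 0.312% of all genes called. The 8 choroid plexus markers summed to 19.5 to 417 CPM in WT sedentary and to 814 to 1882 CPM in WT exercise mice, with no marker at 0 in any library. They spanned 27.6 to 1154 CPM in SCA1 sedentary and 527 to 1582 CPM in SCA1 exercise mice. The part of choroid plexus tissue in the Kl and Igfbp2 levels was not tested. Pcsk6, a protease of the proprotein convertase family, and Sh2b2, a Trk adaptor, had the lowest p for exercise in SCA1 mice, with 0.21 and −0.36 (edgeR adjusted p 0.999 each).

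The last list held 18 genes that neurons switch on with activity, such as Fos, Arc and Npas4, as Bdnf and Vgf are, and 2 of them, Pcsk1 and Scg2, are also on the pathway list. Of the 17 tested, 0 were called in any comparison. Unadjusted p under 0.05 was reached by 23.5% between sedentary groups (4 higher, 0 lower), against 10.1% of all genes. For exercise in SCA1 mice it was 29.4% (0 higher, 5 lower), against 2.17%. Exercise in WT mice gave 11.8%, against 4.69%, and SCA1 against WT exercise gave 0%, against 2.93%. The interaction gave 17.6% (0 higher, 3 lower), against 3.78%. Genotype averaged over activity gave 17.6% (3 higher, 0 lower), against 9.81%, and exercise averaged over genotype 17.6% (0 higher, 3 lower), against 3.54%. Without mice 16 and 55 the shares between sedentary groups and for exercise in SCA1 mice were 29.4% and 11.8%, against 20.2% and 8.79%. For the interaction, averaged genotype and averaged exercise they were then 17.6%, 11.8% and 11.8%, against 14.8%, 11.7% and 6.48%. The median log2 fold change was 0.49 for SCA1 sedentary minus WT sedentary mice, with 13 of 17 above 0, and −0.50 for SCA1 exercise minus SCA1 sedentary mice, with 14 of 17 below 0. Of all genes 52.5% lay above 0 in the former and 51.9% below 0 in the latter. These comparisons share the SCA1 sedentary group. Without mice 16 and 55 the medians were 0.05, with 9 of 17 above 0 (51.6% of all genes), and −0.31, with 10 of 17 below 0 (49.6% of all genes). Fos, an early response transcription factor, was at 3.96 ± 1.77 CPM in WT sedentary and 21.3 ± 22.2 CPM in SCA1 sedentary mice, an SD above the mean (2.44, 0.56 to 4.33, edgeR adjusted p 0.374). Nr4a3, an orphan nuclear receptor, was at 7.42 ± 1.56 and 18.4 ± 8.06 CPM in the same groups (1.31, 0.61 to 2.01, edgeR adjusted p 0.219). For exercise in WT mice, Arc, a synaptic protein, gave −0.44 and Nr4a3 0.81, with an edgeR adjusted p of 0.958 each.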

How the data were processed

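The deposited files hold read counts per gene, 1 file per mouse, written by the aligner. Per the labels, the authors trimmed reads with fastp 0.24.0, checked them with FastQC and aligned them to GRCm39 with STAR 2.7.10a, whose gene counts they deposited for unstranded and both stranded settings. The annotation version was not given in the sources used here. The reverse-strand counts were used, since the forward column held 5.54% to 6.01% of the stranded counts. The study's methods state that 2 RNA samples of lower integrity had an altered library preparation, and which these were is not given in the sources used here.

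Counts were filtered (filterByExpr), scaled (TMM) and tested with edgeR 4.0.16 in R 4.3.3 (estimateDisp, glmQLFit, glmQLFTest, 1 mean per group), with Benjamini-Hochberg adjustment over 20341 genes. Levels are CPM with TMM library sizes, and log2 CPM has a prior count of 2. Permutation tests were exact and two-sided. Alternatives were DESeq2 1.42.0, RLE factors, genes with at least 1 count, unstranded counts, a chromosome Y covariate, fits to the 2 groups compared, no fold limit, each mouse left out, and mice 16 and 55 left out. The edgeR step was tested on simulated counts.

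Gene names and exon lengths came from GENCODE vM39 (56323 of 56941 identifiers matched). Start-site sequences are RefSeq's, from a GRCm38.p6 table, and those of Bdnf were placed by exact match on chromosome 2 of GRCm39. The text names the 8 genes, the 2 list genes with the lowest p in each comparison where they add a value, list genes called under any setting described, and the 2 genes most like each of the 8. The rule that chose the genes counts 2 further ones, and these, 1 gene most like Vgf and 1 brainstem marker are not reported here. The genes and lists were chosen with earlier results of these data known. Of the lists, 6 pathway genes and 1 activity gene were too low to test.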

Additional observations from a re-analysis of the deposited data

How the results depend on the processing

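No one of the 8 genes was called in any of the 7 comparisons under any of 20 alternatives, 12 of which leave out 1 mouse. Of 1040 alternative fold changes 983 kept their sign and 57 did not, 40 of these where the value over all mice was under 0.1 in size. Leaving out mice 16 and 55 turned the sign of Ntrk3 (0.23) and Igf1 (−0.17) between SCA1 and WT sedentary mice, of Ntrk2 (−0.0051) and Fndc5 (−0.0051) between SCA1 and WT exercise mice, of Bdnf (0.11) and Vgf (0.11) for the interaction, of Ntrk3 for genotype averaged over activity (0.088) and of Fndc5 for exercise averaged over genotype (0.019). The chromosome Y covariate turned Ngfr between SCA1 and WT exercise mice (0.080) and Ntf3 for exercise averaged over genotype (−0.033), and unstranded counts turned the latter (−0.0048). The cause was not tested.

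With 1 mouse left out, log2 fold changes that crossed 0 spanned the following ranges. For SCA1 against WT sedentary mice they were −0.29 to 0.022 for Bdnf, −0.0058 to 0.13 for Ntrk2, −0.25 to 0.21 for Ntrk3 and −0.19 to 0.30 for Igf1. For exercise in WT mice they were −0.0090 to 0.25 for Bdnf, −0.0081 to 0.58 for Ntf3 and −0.052 to 0.29 for Igf1. For exercise in SCA1 mice they were −0.10 to 0.21 for Bdnf, −0.43 to 0.17 for Ntf3, −0.026 to 0.11 for Ntrk2, −0.095 to 0.37 for Ntrk3, −0.33 to 0.0039 for Ngfr and −1.71 to 0.42 for Vgf. For SCA1 against WT exercise mice they were −0.11 to 0.29 for Ntf3, −0.0051 to 0.082 for Ntrk2, −0.18 to 0.18 for Ngfr and −0.0051 to 0.12 for Fndc5. For the interaction they were −0.23 to 0.081 for Bdnf, −0.087 to 0.057 for Ntrk2, −0.39 to 0.073 for Ntrk3, −1.16 to 0.97 for Vgf and −0.11 to 0.39 for Igf1. Averaged over activity, genotype gave −0.22 to 0.020 for Ntrk3, and averaged over genotype, exercise gave −0.12 to 0.21 for Ntf3, −0.0035 to 0.19 for Ngfr and −0.058 to 0.060 for Fndc5.

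Counts over all genes varied between settings. From 7 genes called between SCA1 and WT sedentary mice they ran from 0 to 205, and from 24 for genotype averaged over activity from 0 to 177. From 0 called they ran up to 150 for exercise in WT mice, 1 for exercise in SCA1 mice, 37 between SCA1 and WT exercise mice, 2 for the interaction and 6 for exercise averaged over genotype. No paired analysis was possible because the groups share no mouse number. The 3 mice per group and, for Ntf3, as few as 46 reads limit what could be detected, and the values without mice 16 and 55 for the gene lists and correlations were added after seeing the data.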
